A study of Homo sapiens with 12 samples.

Results

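The p38 branch of stress signalling that ends in MAPKAPK2 was followed here through 10 of the 19771 protein-coding genes measured. The members were the p38-activating kinases MAP2K3 and MAP2K6, the p38 kinases MAPK14 and MAPK13, the p38-activated kinases MAPKAPK2, MAPKAPK3 and MAPKAPK5, and the RNA-binding proteins ZFP36, ZFP36L1 and ZFP36L2. They were taken by gene symbol, around MAPKAPK2, which was chosen by its measured level, higher in cells overexpressing IFI6 than in their vector control. For all 10 genes that comparison, and each other comparison that uses its libraries, is therefore given as a description with no test. The hairpin comparison shares no library with it and was tested.

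Total RNA was sequenced from TE-1, a human oesophageal cancer cell line grown in DMEM with 10% FBS, 48 h after transfection, and the levels are FPKM, the deposited unit, which divides by transcript length and by the mapped fragments of the library. The OE_IFI6 cells received a vector that overexpresses IFI6, an interferon-induced protein of mitochondria, and the OE_control cells its control vector. The sh_IFI6 cells received an interference vector against IFI6, and the sh_control cells its control. Each of the 4 groups had 3 libraries, no group was left untransfected, and the cells all came from a single line. Whether those libraries were grown as separate cultures is not stated, so the p-values below measure the spread between these libraries, which may be technical. In such bulk RNA, fewer cells that make a message and less of it per cell cannot be told apart. Where groups of 3 libraries do not overlap, an exact two-sided permutation test cannot give a p under 0.1. The share of all genes without overlap was not counted, so such statements below are descriptions.

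Several features of the libraries bear on what follows. The OE_control libraries stood apart: their scores on the leading principal component (23.1% of the variance) were -30.6, -22.2 and -22.3, whereas the remaining 9 scores ran from 5.89 to 11.3. Differences from OE_control are therefore given beside those of OE_IFI6 from sh_control, which leave it out but share the OE_IFI6 libraries. IFI6 had a mean of 312 FPKM in OE_IFI6 and 24.7 in OE_control, and limma put it higher in OE_IFI6 (log2 difference 3.62, SE 0.17, adjusted p = 4.7e-07). It had a mean of 14.6 FPKM in sh_IFI6 and 23.4 in sh_control, and this log2 difference of -0.65 (SE 0.17) did not pass the threshold (limma adjusted p = 0.82). Of 12 squamous and epithelial markers, 3 (KRT8, KRT18 and KRT17) had a mean of at least 1 FPKM. KRT5, KRT6A, SOX2 and EPCAM were listed at 0 in every library, and KRT14, CDH1 and DSG3 had means under 0.1. KRT19 and TP63 lay in between. Most of this list was thus low or absent, and a squamous origin was not settled by it. KRT17 lay at 2.76 to 4.10 FPKM in OE_control and at 0.49 to 1.42 elsewhere, so it too was low outside OE_control. The summed level of 8 immune markers, 4 of them listed at 0 in every library, lay at 2.45 to 3.15 FPKM in OE_control, 1.5 to 1.9 in OE_IFI6, 1.79 to 2.08 in sh_control and 1.75 to 3.14 in sh_IFI6. The part of these differences in the results below was not tested.

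As background, stress and inflammatory cytokines lead to phosphorylation of MAP2K3 and MAP2K6, which in turn phosphorylate and activate the p38 kinases. Active p38 docks on MAPKAPK2, also called MK2, and switches it on, and the kinases leave the nucleus together. MK2 phosphorylates the small heat shock protein HSPB1 and tristetraprolin, the product of ZFP36, and phosphorylated tristetraprolin recruits the deadenylation machinery less well to messages with AU-rich elements, which then last longer. These steps run through phosphorylation, which RNA levels do not measure.

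MAPKAPK2 was low in OE_control and lay within a common range in the other groups. Its level was 16.8, 17.4 and 18.8 FPKM in the OE_control libraries and 46.9, 42.0 and 51.9 FPKM in OE_IFI6. It was 50.7, 52.6 and 50.2 FPKM in sh_control and 52.5, 51.5 and 50.6 FPKM in sh_IFI6. The OE_control libraries all lay below the other 9, which spanned 42.0 to 52.6 FPKM, and the OE_IFI6 libraries overlapped those of sh_control. The gene (ENSG00000162889) lies at chromosome 1, 206684944 to 206734283 in the deposited coordinates.

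The mean of MAPKAPK2 was 46.9 ± 4.97 FPKM in OE_IFI6 and 17.7 ± 1.03 in OE_control (SD, n = 3 each), a ratio of 2.65. On the scale of log2(FPKM + 1), used for every log2 difference here, OE_IFI6 was 1.36 higher than OE_control (SE 0.10), the value that chose the gene. OE_IFI6 differed from sh_control by -0.13 (SE 0.10, 95% interval -0.34 to 0.09), and OE_control differed from sh_control by -1.48 (SE 0.10). These comparisons share libraries, so the 3 values are not independent of each other.

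In the hairpin comparison MAPKAPK2 had a mean of 51.5 ± 0.93 FPKM in sh_IFI6 and 51.2 ± 1.29 in sh_control (SD, n = 3 each). The log2 difference was 0.01 (SE 0.10), with a 95% interval from -0.21 to 0.23 (limma adjusted p = 0.99). An exact two-sided permutation test of its FPKM gave p = 0.80, in a design whose smallest possible p is 0.1. The 2 sets of libraries overlapped.

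**Figure D1:**
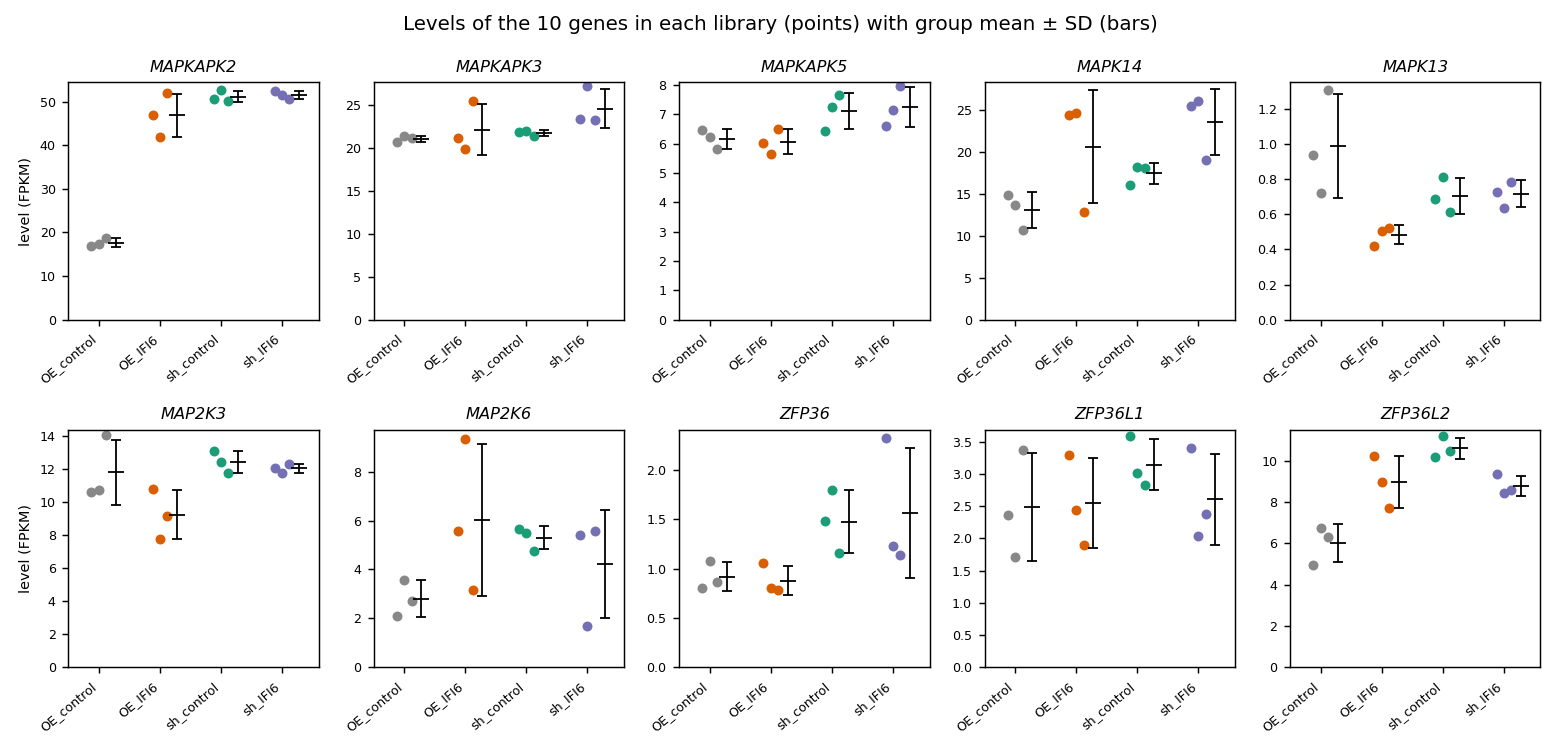
Level in FPKM (vertical axis, each panel with its own scale from 0) of the 10 genes in each library (points) and the mean ± SD of each group of 3 (bars). MAPKAPK2 lies at 16.8 to 18.8 FPKM in OE_control and at 42.0 to 52.6 in the other 9 libraries, while MAPKAPK3 spans 19.9 to 27.3 FPKM with no such gap.

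MAPKAPK2 has a pair of coding transcripts that differ only in their last coding stretch. The longer protein ends in a C-terminal region that carries a nuclear localisation signal and the site where p38 docks. MAPKAPK2-201 and MAPKAPK2-202 share their other coding exons, and the stretches in which they differ are shown because they set the 2 proteins apart. They are from GENCODE release 29 (GRCh38), plus strand, with the stop codon in capitals: 54 bases at chr1:206732038-206732091 for MAPKAPK2-201 and 144 bases at chr1:206732575-206732718 for MAPKAPK2-202.
MAPKAPK2-201: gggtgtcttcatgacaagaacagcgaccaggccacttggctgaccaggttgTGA
MAPKAPK2-202: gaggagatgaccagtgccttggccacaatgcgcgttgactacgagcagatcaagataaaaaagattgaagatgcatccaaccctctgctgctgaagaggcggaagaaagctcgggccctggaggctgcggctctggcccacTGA

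The longer form, MAPKAPK2-202, led in 12 of 12 libraries. Its level was 14.6, 14.6 and 16.2 FPKM in OE_control, 42.5, 37.1 and 47.2 in OE_IFI6, 45.6, 45.9 and 44.7 in sh_control, and 47.2, 45.7 and 44.7 in sh_IFI6. As for the whole gene, the OE_control libraries lay below the other 9. MAPKAPK2-202 made up 85.6% ± 1.80 of the gene's FPKM in OE_control, 90.0% ± 1.40 in OE_IFI6, 88.7% ± 1.43 in sh_control and 89.0% ± 0.82 in sh_IFI6 (SD, n = 3 each).

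The shorter form, MAPKAPK2-201, was at 1.36, 2.29 and 1.59 FPKM in OE_control and at 3.50, 3.87 and 3.71 in OE_IFI6. It was at 4.27, 4.92 and 4.23 FPKM in sh_control and at 4.03, 4.65 and 4.59 in sh_IFI6. Both coding forms were thus low in OE_control, with OE_IFI6 to OE_control ratios of 2.79 for MAPKAPK2-202 and 2.12 for MAPKAPK2-201. The short non-coding MAPKAPK2-203 had group means of 0.81 FPKM in OE_control, 0.94 in OE_IFI6, 1.24 in sh_control and 1.18 in sh_IFI6, and its libraries overlapped between OE_control and OE_IFI6. The sh_IFI6 libraries of MAPKAPK2-203, at 1.14 to 1.24 FPKM, all lay above those of both OE groups, and sh_control, at 0.78 to 1.69, overlapped each of the other groups.

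Between the hairpin groups the log2 difference was 0.01 (SE 0.11, 95% interval -0.24 to 0.26) for MAPKAPK2-202 and -0.01 (SE 0.15, 95% interval -0.35 to 0.32) for MAPKAPK2-201. Neither passed the threshold (limma adjusted p = 1.0 for each), in a comparison where 0.0283% of 28221 tested transcripts did. The share of MAPKAPK2-202 did not differ detectably either (exact two-sided permutation test, p = 1.0).

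**Figure D2:**
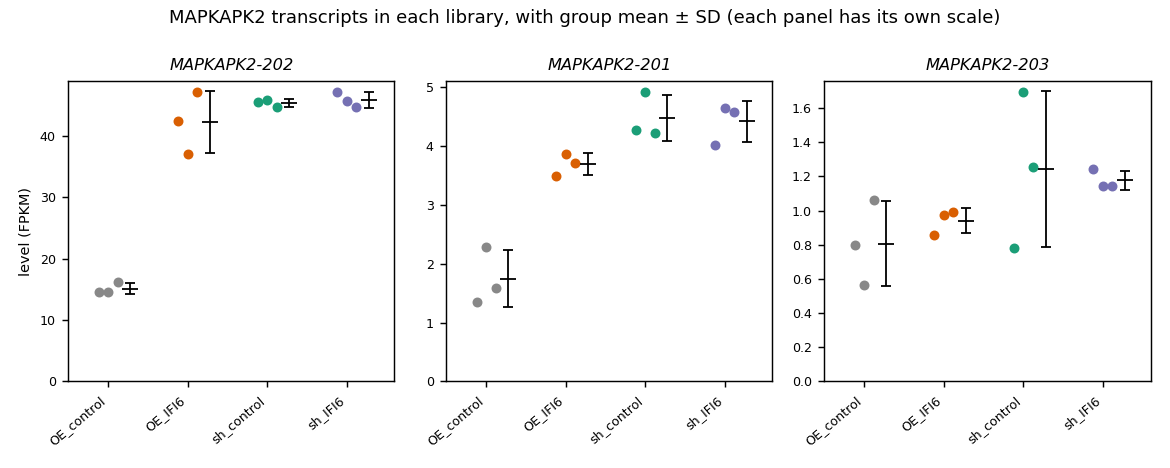
Level in FPKM (vertical axis, each panel with its own scale from 0) of MAPKAPK2-202, MAPKAPK2-201 and MAPKAPK2-203 in each library (points), with the mean ± SD of each group of 3 (bars). Both coding transcripts are lowest in the 3 OE_control libraries, and the libraries of the non-coding MAPKAPK2-203 overlap between OE_control and OE_IFI6.

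The related kinases showed no such gap. MAPKAPK3, which is close to MK2 in sequence and shares substrates with it, was at 20.7, 21.4 and 21.2 FPKM in OE_control and 21.2, 19.9 and 25.5 in OE_IFI6. It was at 21.9, 22.0 and 21.4 FPKM in sh_control and 23.4, 27.3 and 23.2 in sh_IFI6. The OE groups overlapped, and the sh_IFI6 libraries all lay above sh_control. The log2 difference of OE_IFI6 was 0.06 (SE 0.11) from OE_control and 0.02 (SE 0.11) from sh_control. The hairpin difference was 0.17 on the log2 scale (SE 0.11, 95% interval -0.08 to 0.41) and did not pass the threshold (limma adjusted p = 0.82).

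MAPKAPK5, the more distant relative also known as PRAK, lay between 5.67 and 6.51 FPKM in the 6 libraries of the OE groups and between 6.44 and 7.98 in the 6 of the hairpin groups. Its log2 difference was -0.02 (SE 0.11) between OE_IFI6 and OE_control and -0.20 (SE 0.11) between OE_IFI6 and sh_control. It was 0.02 (SE 0.11, 95% interval -0.22 to 0.27) between sh_IFI6 and sh_control (limma adjusted p = 0.98). The libraries overlapped between the OE groups and between the hairpin groups.

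Between OE_control and the other groups, the balance of the MAPKAPK genes in FPKM followed MAPKAPK2. The ratio of MAPKAPK2 to MAPKAPK3 was 0.84 ± 0.04 in OE_control, 2.12 ± 0.09 in OE_IFI6, 2.35 ± 0.04 in sh_control and 2.10 ± 0.19 in sh_IFI6 (SD, n = 3 each). MAPKAPK3 thus exceeded MAPKAPK2 in the OE_control libraries alone, where the ratio ran from 0.81 to 0.89. In the hairpin comparison every sh_IFI6 ratio, from 1.89 to 2.25, lay below every sh_control ratio, from 2.31 to 2.40. An exact two-sided permutation test of that difference gave p = 0.1, the smallest the design allows. There the means of sh_IFI6 and sh_control had a ratio of 1.01 for MAPKAPK2, whose libraries overlapped, and 1.13 for MAPKAPK3, whose libraries did not. MAPKAPK2 made up 39.3% ± 1.53 of the summed FPKM of the 3 MAPKAPK genes in OE_control, against 62.4% ± 0.73 in OE_IFI6, 63.9% ± 0.51 in sh_control and 61.8% ± 1.86 in sh_IFI6.

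The p38 kinases themselves varied more between libraries. MAPK14, which encodes p38 alpha, the form that activates MK2 in most cells, was at 14.9, 13.7 and 10.8 FPKM in OE_control and 24.4, 24.6 and 12.9 in OE_IFI6. It was at 16.0, 18.2 and 18.1 FPKM in sh_control and 25.6, 26.1 and 19.1 in sh_IFI6. OE_IFI6 replicate 3 lay within the OE_control range, and all 3 sh_IFI6 libraries lay above sh_control. The log2 difference was 0.57 (SE 0.22) between OE_IFI6 and OE_control (0.86 without OE_IFI6 replicate 3), and 0.18 (SE 0.22) between OE_IFI6 and sh_control. Between sh_IFI6 and sh_control it was 0.40 (SE 0.22, 95% interval -0.09 to 0.89), which did not pass the threshold (limma adjusted p = 0.82).

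MAPK13, which encodes p38 delta, was near the floor of the measurement, with a mean under 1 FPKM over the 12 libraries, and was not tested. It was at 0.94, 0.72 and 1.31 FPKM in OE_control and 0.42, 0.50 and 0.52 in OE_IFI6. Levels in the hairpin groups ran from 0.61 to 0.81 FPKM in sh_control and from 0.64 to 0.79 in sh_IFI6. OE_IFI6 lay below every other library, and no read counts were used here to say how many fragments such values rest on. MAPK14 made up 38.4% ± 4.23 of the summed FPKM of the p38 kinase genes in OE_control, 48.2% ± 13.4 in OE_IFI6, 44.0% ± 1.38 in sh_control and 48.9% ± 4.45 in sh_IFI6 (SD, n = 3 each). The genes for p38 beta and p38 gamma were close to each other in level: MAPK11 had group means from 10.4 to 11.8 FPKM and MAPK12 from 9.53 to 12.0 FPKM.

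MAPK14 is made as several forms that differ in coding sequence, and the deposited values spread its level over them unevenly. MAPK14-201 and MAPK14-202 use alternative versions of the coding exon numbered 9 in each, both 80 bases long, which encode part of the kinase domain. The versions are shown because they are what separates these forms. Both are from GENCODE release 29 (GRCh38), plus strand, at chr6:36095987-36096066 and chr6:36100188-36100267, and nothing is capitalised.
MAPK14-201: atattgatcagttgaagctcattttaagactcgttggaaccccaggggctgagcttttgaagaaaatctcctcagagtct
MAPK14-202: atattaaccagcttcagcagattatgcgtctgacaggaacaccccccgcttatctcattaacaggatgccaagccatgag

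MAPK14-204 shares the version of MAPK14-201 and begins its coding sequence later. It lacks the 116 coding bases of the first coding exon of MAPK14-201, at chr6:36028158-36028273, and starts 15 bases before the end of the next, at chr6:36052814-36052828. Its coding start is shown with the first codon in capitals as the annotation places it.
MAPK14-204: ATGaaacatgaaaat

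MAPK14-204 was listed at 6.58, 6.57 and 6.95 FPKM in sh_control and at 0 in 8 of the other 9 libraries, with 0.06 FPKM in OE_IFI6 replicate 3. It made up 38.5% ± 2.43 of the FPKM of MAPK14 in sh_control. The call between sh_IFI6 and sh_control passed the threshold (limma adjusted p = 0.00015) and was lost with a pseudocount of 0.1 (adjusted p = 0.068). MAPK14-204 reached the minimum mean of 1 FPKM only through sh_control, where it was high, so its call is a description and supports nothing. It was the only one of 18 tested transcripts of the members to pass, against 0.0283% of 28221 tested transcripts. Its SE of 0.17 rests on a spread pooled over the groups, and OE_control and sh_IFI6 were at 0 in every library. The size of the fitted difference follows the pseudocount, since sh_IFI6 is listed at 0, and is no fold. An exact 0 in FPKM can be a failed estimate, and whether it was so here was not tested.

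The other forms of MAPK14 moved from library to library within a group. MAPK14-201 was at 0.83, 9.26 and 8.40 FPKM in OE_control, 8.42, 20.7 and 5.23 in OE_IFI6, 1.0, 0.57 and 1.26 in sh_control, and 12.4, 2.58 and 4.20 in sh_IFI6. MAPK14-203, whose coding sequence ends early, was at 9.78 FPKM in OE_control replicate 1 and at 16.6 and 5.97 in sh_IFI6 replicates 2 and 3, and at 2.47 FPKM or less elsewhere. MAPK14-201 was the highest form in 6 libraries, MAPK14-203 in 3 and MAPK14-204 in 3.

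The listed level of MAPKAPK3 also moved between forms, but unlike those of MAPK14 the 2 forms involved do not differ in coding sequence. MAPKAPK3-201 and MAPKAPK3-208 each have 1146 coding bases, and no coding stretch was found in 1 and not the other. In OE_control replicate 2, OE_IFI6 replicate 1 and sh_IFI6 replicate 1, MAPKAPK3-201 was listed at 0 and MAPKAPK3-208 at 17.6, 20.9 and 21.1 FPKM. In the other 9 libraries MAPKAPK3-201 led and MAPKAPK3-208 lay at 0.96 to 2.23 FPKM. The gene level stayed within 19.9 to 27.3 FPKM throughout, since the deposited tables add the transcripts up to the gene. This exchange of listed levels fell in 3 different groups, and MAPKAPK2 showed none in these data. Whether the 0 of MAPKAPK3-201 was a failed estimate or a change of form was not tested.

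**Figure D3:**
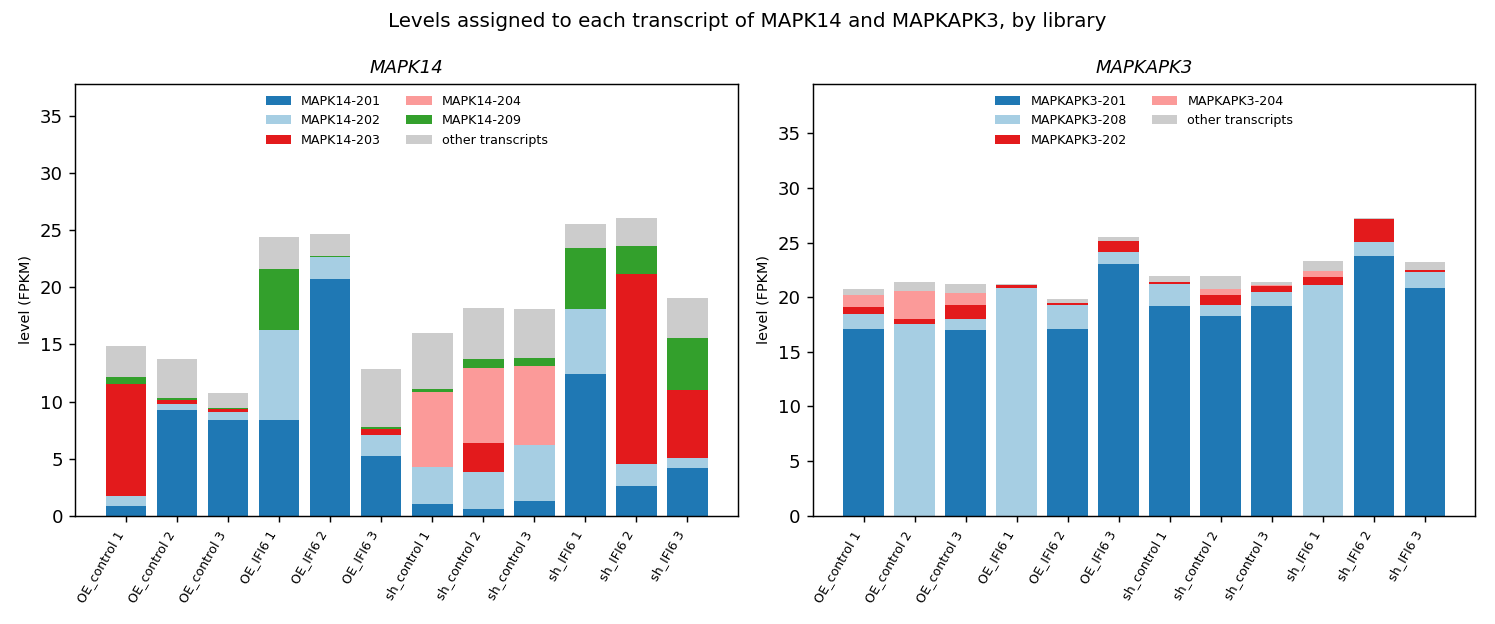
Stacked bars of the level in FPKM (vertical axis, from 0) that the deposited table assigns to the transcripts of MAPK14 and MAPKAPK3 in each of the 12 libraries. MAPK14-204 is visible in the 3 sh_control libraries at 6.57 to 6.95 FPKM, and MAPKAPK3-208 replaces MAPKAPK3-201 in 3 libraries of 3 different groups.

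Upstream of p38, the activating kinases did not move as a pair. MAP2K3 was at 10.6, 10.7 and 14.1 FPKM in OE_control, 10.8, 7.80 and 9.17 in OE_IFI6, 13.1, 12.5 and 11.8 in sh_control, and 12.1, 11.8 and 12.3 in sh_IFI6. OE_IFI6 lay below all 3 sh_control libraries and overlapped OE_control. Its log2 difference was -0.32 (SE 0.14) against OE_control and -0.40 (SE 0.14) against sh_control. In the hairpin comparison it was -0.04 (SE 0.14, 95% interval -0.34 to 0.25; limma adjusted p = 0.97).

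On the log2 scale MAP2K6 had the widest spread of the tested members, with an SE of 0.36. Its level was 2.09, 3.59 and 2.72 FPKM in OE_control, 5.57, 9.31 and 3.15 in OE_IFI6, 5.66, 5.50 and 4.75 in sh_control, and 5.41, 1.68 and 5.56 in sh_IFI6. The lowest library of all, sh_IFI6 replicate 2, sat in a group whose other libraries were near those of sh_control. The log2 difference was 0.80 (SE 0.36) between OE_IFI6 and OE_control and 0.06 (SE 0.36) between OE_IFI6 and sh_control. It was -0.38 (SE 0.36, 95% interval -1.17 to 0.41; limma adjusted p = 0.85) between sh_IFI6 and sh_control. Without sh_IFI6 replicate 2 the latter was 0.04.

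Among the RNA-binding proteins downstream of MK2, ZFP36L2 was the most abundant per length. These proteins bind AU-rich elements in 3′ untranslated regions and bring the CCR4-NOT deadenylase to them. ZFP36L2 was at 4.97, 6.74 and 6.31 FPKM in OE_control, 10.2, 8.97 and 7.73 in OE_IFI6, 10.2, 11.2 and 10.5 in sh_control, and 9.35, 8.42 and 8.59 in sh_IFI6. The OE_control libraries were the 3 lowest of the 12, and the sh_control libraries lay above those of sh_IFI6.

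The log2 difference of ZFP36L2 was 0.51 (SE 0.13) between OE_IFI6 and OE_control, -0.22 (SE 0.13) between OE_IFI6 and sh_control and -0.74 (SE 0.13) between OE_control and sh_control. Between sh_IFI6 and sh_control it was -0.25 (SE 0.13, 95% interval -0.53 to 0.04), which did not pass the threshold (limma adjusted p = 0.82).

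Tristetraprolin itself had a low message. ZFP36 was at 0.80, 1.08 and 0.87 FPKM in OE_control, 1.05, 0.80 and 0.78 in OE_IFI6, 1.48, 1.79 and 1.16 in sh_control, and 2.32, 1.23 and 1.14 in sh_IFI6. All 6 libraries of the OE groups lay below all 6 of the hairpin groups, and within each pair of groups the libraries overlapped. Group means were 0.88 FPKM in OE_IFI6 and 0.92 in OE_control, so ZFP36 reached the minimum mean of 1 FPKM through the hairpin groups. The log2 difference of OE_IFI6 was -0.03 (SE 0.17) from OE_control and -0.39 (SE 0.17) from sh_control. The hairpin difference was 0.03 on the log2 scale (SE 0.17, 95% interval -0.34 to 0.40; limma adjusted p = 0.98).

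ZFP36L1 spanned 1.71 to 3.58 FPKM over the 12 libraries, and its groups overlapped in each of the comparisons made here. The log2 difference was 0.04 (SE 0.20) between OE_IFI6 and OE_control, -0.24 (SE 0.20) between OE_IFI6 and sh_control and -0.21 (SE 0.20, 95% interval -0.66 to 0.23; limma adjusted p = 0.85) between sh_IFI6 and sh_control. The summed FPKM of the 3 ZFP36 genes was 9.41 ± 1.21 in OE_control, 12.4 ± 2.08 in OE_IFI6, 15.2 ± 0.76 in sh_control and 13.0 ± 1.84 in sh_IFI6 (SD, n = 3 each). ZFP36L2 made up 63.8% ± 5.97, 72.6% ± 2.14, 69.7% ± 2.86 and 68.3% ± 5.47 of that sum in the same order.

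Read together, no member passed the threshold of adjusted p under 0.05 in the hairpin comparison. There 0 of 9 tested members passed, 0.0% of the 10925 genes tested passed in limma, and at an unadjusted p under 0.05 there were 563 genes and no member. In OE_IFI6 against OE_control the values of MAPKAPK2 and ZFP36L2 lay past the threshold, 2 of 9 members against a background of 7.66% of genes tested. Since that comparison chose MAPKAPK2, the count is a description and supports nothing. The members also differed in how firmly they held their place there. ZFP36L2 stayed past the threshold in 9 of the 21 alternatives described below, and in 2 of the 12 among them that left a library out. MAPKAPK2 stayed past it in 21 of 21, and in 12 of those 12.

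In OE_IFI6 against sh_control, 0 of 9 members lay past the threshold, against 0.0183% of genes tested. In OE_control against sh_control, which shares the OE_control libraries with the comparison that chose MAPKAPK2, the values of MAPKAPK2 and ZFP36L2 lay past it on the lower side, against 4.78% of genes tested on that side (2.75% on the higher side and 7.52% in either direction). The median log2 difference of the 9 members was 0.06 in OE_IFI6 against OE_control and 0.01 in sh_IFI6 against sh_control, beside 0.05 and 0.00 over all genes tested.

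**Figure D4:**
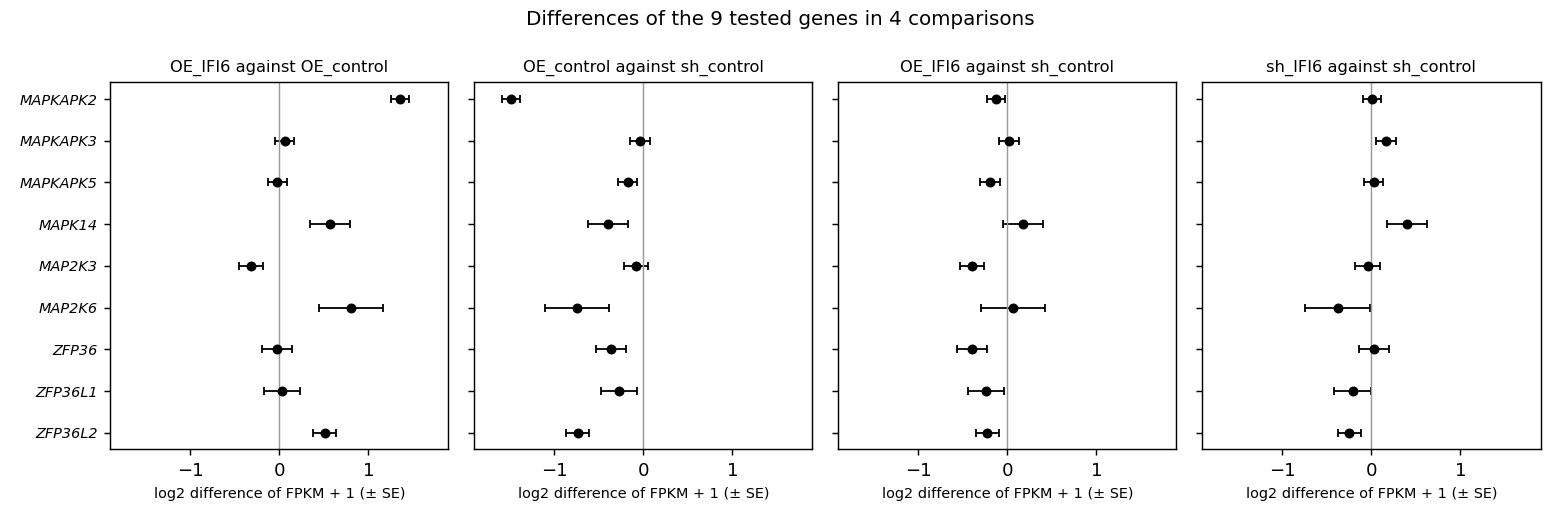
Log2 difference of FPKM + 1 (horizontal axis) with its SE (bars) for the 9 tested members in 4 comparisons. MAPKAPK2 lies at 1.36 in OE_IFI6 against OE_control and at -1.48 in OE_control against sh_control, and near 0 in the comparisons that leave OE_control out; comparisons that share libraries are not independent.

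The other genes of the pathway were taken from lists by role, 90 tested genes in all without the members. In OE_IFI6 against OE_control 4 of the 90 rose and 8 fell (limma adjusted p under 0.05), against a background of 4.1% of genes tested that were higher and 3.56% that were lower. In the hairpin comparison 0 of 90 passed, and at an unadjusted p under 0.05 there were PTGS2 and USF1. In OE_IFI6 against sh_control 0 of 90 passed. In OE_control against sh_control 5 were higher and 6 lower, against 2.75% and 4.78% of genes tested. That split depends on scaling: over all genes it was 300 higher and 522 lower, and 483 and 352 under median-of-ratios scaling.

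The 8 that fell were HSPB1, DDIT3, DUSP1, DUSP8, DUSP10, PIM1, IER3 and TAOK3, and the 4 that rose were MAP2K4, TAOK2, CNOT7 and FOS. From sh_control, the OE_IFI6 differences of these 12 genes ran from -0.32 (PIM1) to 0.02 (MAP2K4). HSPB1, the small heat shock protein that MK2 phosphorylates, was at 511, 476 and 580.0 FPKM in OE_control and 154, 170.5 and 204 in OE_IFI6. Its levels ran from 171 to 209 FPKM in sh_control and from 201 to 221 in sh_IFI6. OE_control was above the other 9 libraries, which overlapped between groups. HSPB1 fell by 1.57 on the log2 scale (SE 0.13, limma adjusted p = 3.8e-05) in OE_IFI6 against OE_control. It was the only one of 13 tested MK2 substrates to pass, near the background of 7.66% of genes tested. Its difference from sh_control was -0.14 (SE 0.13, limma adjusted p = 1.0).

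DDIT3, whose product CHOP is a stress-induced transcription factor that p38 phosphorylates, was at 17.4, 19.1 and 21.8 FPKM in OE_control and 3.38, 4.81 and 4.15 in OE_IFI6. It lay between 4.38 and 5.25 FPKM in sh_control and between 5.20 and 6.61 in sh_IFI6. Again OE_control alone stood high. DDIT3 fell by 2.0 on the log2 scale (SE 0.14, limma adjusted p = 1.2e-05) in OE_IFI6 against OE_control. Of 11 tested transcription factors phosphorylated by p38, 1 passed, against a background of 7.66% of genes tested. DDIT3 in OE_IFI6 differed from sh_control by -0.19 (SE 0.14). Its deposited bounds overlap MARS and MBD6, and strand use in counting was not given in the sources used here, so its level is uncertain.

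Of 7 tested phosphatases that remove phosphate from p38, 3 fell and none rose in OE_IFI6 against OE_control. Over all genes tested 3.56% were lower and 4.1% higher. DUSP1, the phosphatase MKP-1, was at 295, 321 and 313 FPKM in OE_control and 176, 184 and 209.5 in OE_IFI6, with 184 to 194 in sh_control and 187 to 209.8 in sh_IFI6. It fell by 0.71 on the log2 scale (SE 0.10, limma adjusted p = 0.0013). From sh_control, OE_IFI6 differed by 0.01 for DUSP1, -0.19 for DUSP10 and -0.05 for DUSP8, and none passed (limma adjusted p = 1.0 for each). DUSP10 fell by 0.76 (SE 0.16, limma adjusted p = 0.015) and lost its call without OE_IFI6 replicate 2 (adjusted p = 0.057). DUSP8 fell by 0.45 (SE 0.12, limma adjusted p = 0.045) and kept its call in 2 of the 12 fits that left out 1 library, those without OE_control replicate 2 and without OE_IFI6 replicate 1 (adjusted p over the 12 from 0.027 to 0.14).

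Of 19 tested upstream activators, 2 rose and 1 fell in the same comparison, against 4.1% and 3.56% of genes tested. MAP2K4, a kinase of the JNK branch that can also act on p38, had a mean of 28.1 ± 2.87 FPKM in OE_IFI6 and 19.0 ± 2.42 in OE_control (SD, n = 3 each; log2 difference 0.55, limma adjusted p = 0.017), and lost its call without OE_control replicate 3 or without OE_IFI6 replicate 2 (adjusted p = 0.061 in each). TAOK2 rose by 0.63 (limma adjusted p = 0.049) and TAOK3 fell by 0.79, just under the threshold. TAOK2 kept its call without OE_IFI6 replicate 1 and without sh_control replicate 1, and in none of the other 10 fits that left out 1 library (adjusted p over the 12 from 0.022 to 0.12). TAOK3 kept it without sh_control replicate 3 and without sh_IFI6 replicate 1 alone (from 0.032 to 0.15). TAOK3 overlaps RPS2P5, a gene with a mean of 996 FPKM, so its level is uncertain. From sh_control, OE_IFI6 differed by 0.02 for MAP2K4, -0.01 for TAOK2 and -0.20 for TAOK3 (limma adjusted p = 1.0 for each). None of the 5 tested p38 and p38-activated kinases outside the members, nor of the 7 tested AU-rich element binding proteins of other families, passed in OE_IFI6 against OE_control.

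Of 16 tested factors of deadenylation and decay that tristetraprolin recruits, 1 passed in OE_IFI6 against OE_control, beside 7.66% of genes tested. This was CNOT7, a catalytic subunit of CCR4-NOT, which rose by 0.59 on the log2 scale (SE 0.16, limma adjusted p = 0.049). It kept its call in 1 of those 12 fits, without OE_control replicate 2 (adjusted p over the 12 from 0.034 to 0.15). Its difference from sh_control was -0.03 (SE 0.16), and it overlaps VPS37A, which had a mean of 8.28 FPKM. The list's median log2 difference was 0.19, beside 0.05 over all genes tested. In OE_IFI6 against sh_control it was -0.03, beside -0.04.

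**Figure D5:**
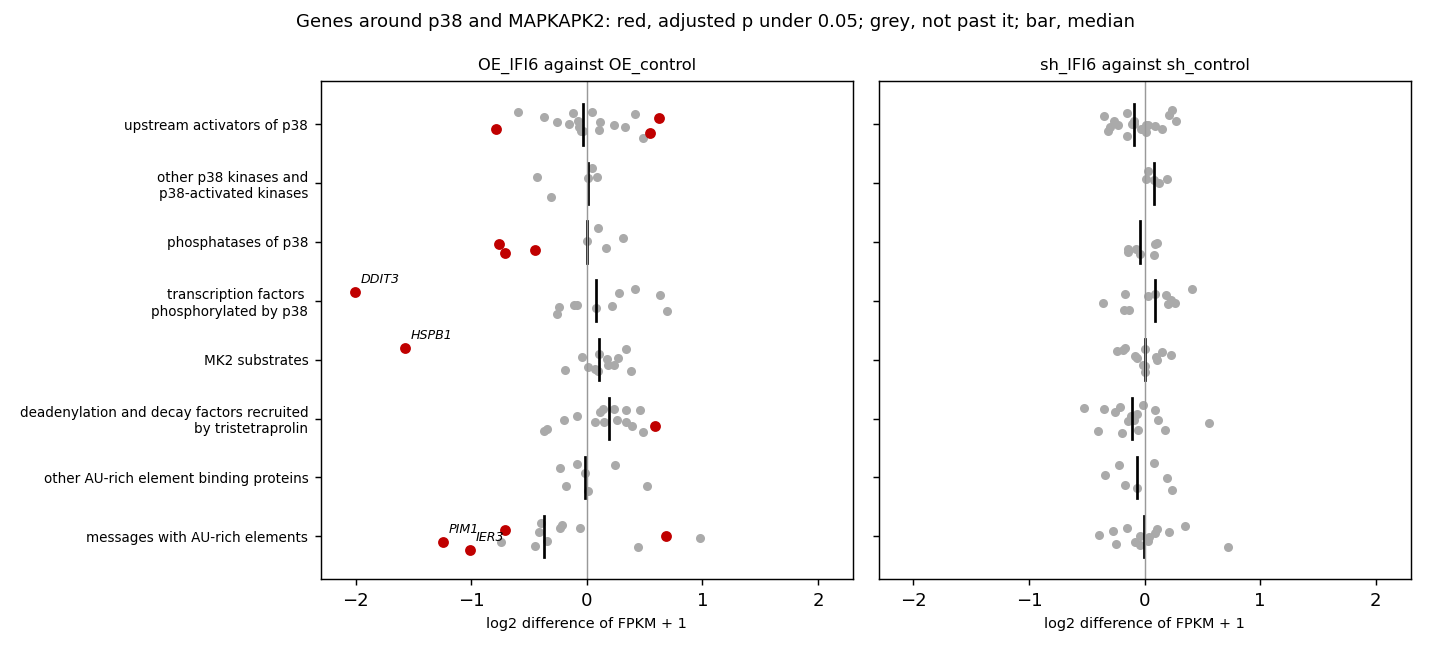
Log2 difference of FPKM + 1 (horizontal axis) of each tested gene of 8 lists around p38 and MAPKAPK2 (points; red, limma adjusted p under 0.05) with the list's median (black bar). In OE_IFI6 against OE_control DDIT3, HSPB1, PIM1 and IER3 lie furthest to the left, from -2.0 (DDIT3) to -1.01 (IER3), and in sh_IFI6 against sh_control no point is red.

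Messages known for AU-rich elements are those the ZFP36 proteins act on. Of 14 tested, 3 fell and 1 rose in OE_IFI6 against OE_control, against 3.56% of genes tested that were lower and 4.1% that were higher. The median log2 difference was -0.37, beside 0.05 over all genes tested. It was -0.14 in OE_IFI6 against sh_control, beside -0.04 over all genes. In OE_control against sh_control it was 0.25, beside -0.09. In the hairpin comparison none of the 14 passed and the median was 0.00.

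PIM1, a survival kinase, was at 99.7, 109 and 111 FPKM in OE_control and 39.4, 43.9 and 50.8 in OE_IFI6, with 55.0 to 56.5 in sh_control and 53.3 to 59.5 in sh_IFI6. It fell by 1.24 on the log2 scale (SE 0.11, limma adjusted p = 6.0e-05). All 3 OE_IFI6 libraries also lay below sh_control, a difference of -0.32 that did not pass (limma adjusted p = 0.99). IER3, an early stress-response gene, was at 807, 732 and 754 FPKM in OE_control and 337, 368 and 441 in OE_IFI6, with 441 to 471 in sh_control and 489.6 to 555 in sh_IFI6.

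IER3 fell by 1.01 on the log2 scale (SE 0.11, limma adjusted p = 0.00029), and its difference from sh_control was -0.27 (SE 0.11, limma adjusted p = 1.0). The antisense gene IER3-AS1 overlaps it. FOS, an early-response transcription factor, moved the other way: it was at 52.1, 65.7 and 62.7 FPKM in OE_control and 76.6, 100.1 and 118 in OE_IFI6, with 102 to 121 in sh_control and 94.3 to 112 in sh_IFI6. OE_control lay below the other 9 libraries. FOS differed from sh_control by -0.17 in OE_IFI6 (SE 0.15, limma adjusted p = 1.0) and by -0.85 in OE_control (limma adjusted p = 0.0074). In OE_IFI6 against OE_control it rose by 0.68 (SE 0.15, limma adjusted p = 0.02) and lost its call without OE_control replicate 1, without OE_IFI6 replicate 2 or without OE_IFI6 replicate 3 (adjusted p of 0.067, 0.065 and 0.053). The third message that fell was DUSP1, which is also on the list of phosphatases.

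The AU-rich core that the ZFP36 proteins bind was looked for in the 3′ untranslated region of each gene's leading transcript, on the sense strand alone, as the heptamer TATTTAT and as the nonamer TTATTTATT, which contains the heptamer. Of 9033 tested genes with such a region, 32.1% held the heptamer and 8.2% the nonamer. ZFP36L2 and ZFP36L1 each held 3 heptamers and 1 nonamer. MAPKAPK5 held 3 heptamers and 2 nonamers in 9177 bases, and MAP2K6 held 3 heptamers and no nonamer in 12108 bases, both long regions. The heptamer was not found in the leading transcripts of MAPKAPK2, MAPKAPK3, MAPK14 or MAP2K3. For ZFP36 the form scanned was ZFP36-201, of 690 bases with 213 coding, which led in 4 of 12 libraries. The heptamer was not found in its 444 bases. The longer ZFP36-202 and ZFP36-203 were not scanned, so this does not show that the ZFP36 message lacks the element.

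The sites below are shown because they carry the element, 1 site a gene, in the members where it was found and in the AU-rich messages that fell, from GENCODE release 29 (GRCh38) as sense-strand DNA, with the nonamer in capitals, or the heptamer in MAP2K6 and IER3, which have no nonamer. They lie at chr2:43223449-43223475 and chr14:68788078-68788104 (minus strand), chr12:111897446-111897472 and chr17:69542134-69542158 (plus strand), chr5:172768644-172768670 (minus strand), chr6:37174986-37175012 (plus strand) and chr6:30743655-30743679 (minus strand), in the order given. The element was not particular to the messages that fell. Every scanned message of that list without a call also held the heptamer, from 1 in PLAUR and CCND1 to 7 in PTGS2 and 8 in CXCL2. FOS, which rose, held 0 in the 163 bases of FOS-206, the only form of it scanned. This does not show that the FOS message lacks the element. MYC and VEGFA were not scanned. A match is a description of the sequence and not a measured site of binding.
ZFP36L2: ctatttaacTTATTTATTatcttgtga
ZFP36L1: actgttggaTTATTTATTttagaaatt
MAPKAPK5: tcattttaaTTATTTATTtaaagagta
MAP2K6: ttattttaaTATTTATgtttaagtg
DUSP1: ggctggtccTTATTTATTtaacttcac
PIM1: gttatgtatTTATTTATTtatttattt
IER3: cctaattaaTATTTATatgtattta

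Genes whose levels followed MAPKAPK2 were ranked by Pearson's r over the 12 libraries on log2(FPKM + 1), among 10924 other tested genes. The libraries share the OE_control gap, so r is a description and has no p. The highest were CABLES1 (r = 0.998), B4GALT1 (0.994), GAS1 (0.993), CHST14 (0.989) and LY6K (0.986), and the lowest NFIL3 (-0.986), DNAJB1 (-0.983) and OASL (-0.978). Over the 9 libraries without OE_control, r was 0.930 for CABLES1, 0.805 for B4GALT1, 0.623 for GAS1, 0.810 for CHST14 and 0.735 for LY6K. It was -0.632 for NFIL3 and -0.217 for OASL, and for DNAJB1 it turned to 0.583.

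CABLES1 had group means of 9.24 ± 0.41 FPKM in OE_control, 15.6 ± 1.17 in OE_IFI6, 16.3 ± 0.57 in sh_control and 16.2 ± 0.11 in sh_IFI6 (SD, n = 3 each). DNAJB1, a heat-shock co-chaperone, ran the other way, at 272 ± 26.3 FPKM in OE_control, 31.5 ± 1.69 in OE_IFI6, 31.6 ± 1.27 in sh_control and 33.2 ± 0.71 in sh_IFI6. In both, as in MAPKAPK2, OE_control stood apart from 3 groups of like level.

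The neighbours of MAPKAPK2 on chromosome 1 showed no difference of like size. Of the tested genes within 500 kb, none of FAM72A, SRGAP2, IKBKE, RASSF5, EIF2D, DYRK3, PFKFB2, YOD1, C4BPB and C4BPA passed the threshold in OE_IFI6 against OE_control, where 7.66% of genes tested did. With so few genes at that share, nothing is read from the count. Their limma adjusted p ran from 0.19 (EIF2D, log2 difference 0.34, the direction of MAPKAPK2) upward. DYRK3, which ends at position 206684419, just before the start of MAPKAPK2, had a log2 difference of 0.09 (SE 0.12, limma adjusted p = 0.69).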

How the data were processed

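The deposited values are FPKM, computed by the authors for genes and transcripts. Per the submitters' processing notes the tools were HISAT2, StringTie, Cuffdiff and edgeR, with neither version nor role. Build, annotation and strand setting were not given in the sources used here. Of 75 transcripts of the members, 72 matched GENCODE release 29 by identifier, 66 with the same bounds; coordinates of genes are as deposited.

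Groups and replicate numbers came from the sample titles. Values of log2(FPKM + 1) were tested for protein-coding genes averaging 1 FPKM or more across libraries (10925 genes, 9 of the 10 members) and for annotated transcripts with the same minimum. Tables were read with data.table, version 1.17.8, in R 4.3.3. Limma 3.58.1 was run as 1 model of group means with a trended prior variance and 8 residual degrees of freedom. Tests were two-sided, with Benjamini-Hochberg adjustment over all features tested and a threshold of 0.05. The scale understates differences of genes near 1 FPKM. Single values were compared by exact permutation in SciPy 1.17.1 (Python 3.11.15, pandas 2.3.3; figures in matplotlib 3.10.9). The fit was tested on simulated data.

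Read depth was not recovered: 24.9% to 28.7% of low values per library lay within 1% of a whole step, so depth is unknown and no count test was run. Summed FPKM over protein-coding genes ran from 325877 to 357145 and genes at 1 FPKM or more from 10650 to 10987 per library. No pair of libraries was identical.

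The members, lists, tests and alternatives were chosen with earlier results of these data known. Named were the members, MAPKAPK2 transcripts with a group mean of at least 0.5 FPKM and the leading transcripts of the others, IFI6, up to 4 genes per list past the threshold, the 5 genes most and 3 least like MAPKAPK2, and its tested neighbours within 500 kb. The forms of MAPK14 and MAPKAPK3 beyond the leading ones were named after their values were seen. CNOT2 was not matched by symbol and is not analysed here. Of the members, MAPKAPK2, MAPKAPK3, MAPKAPK5 and ZFP36L2 overlap another gene with a mean of at least 1 FPKM, and reads of such genes may not have been separated. Marker lists, beside those of squamous and epithelial cells, were of immune cells (2 of 8 with a mean of at least 1 FPKM) and of fibroblasts and endothelium (5 of 9).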

Additional observations from a re-analysis of the deposited data

How the results depend on the processing

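Gene-level results had 21 alternatives, or 20 where a minimum of 5 FPKM left the gene out (among them MAP2K6, ZFP36, ZFP36L1, DUSP8 and DUSP10): other pseudocounts, filters, scalings and spreads, a replicate block, and leaving out each library. In the hairpin comparison 0 members passed under each of the 21. There the near-zero values changed sign: MAPKAPK2 was at -0.026 under quantile normalization and ran from -0.0044 to 0.029 when 1 library was left out, MAPKAPK2-202 was at -0.032 under quantile normalization and from -0.0064 to 0.031, MAPKAPK2-201 from -0.046 to 0.044, MAPKAPK5 from -0.039 to 0.080, MAP2K6 from -0.60 to 0.044 and ZFP36 from -0.17 to 0.15. MAPK14-204 kept its direction, with a fitted value of -6.09 and no call at a pseudocount of 0.1; that value follows the pseudocount, since sh_IFI6 is listed at 0, and is no fold.

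In OE_IFI6 against OE_control MAPKAPK2 ran from 1.28 to 1.43. The count of members past the threshold was 1 with the replicate block and 1 in a fit of only the 6 libraries compared, and ran from 1 to 3 when 1 library was left out. Over all genes it was 837, 802 with the replicate block and 167 with the 6-library fit. Genes of the other lists that were higher numbered 2 with no minimum, 0 in the 6-library fit, 2 in the table of all annotated genes and 0 to 4 without 1 library, and those lower numbered 5 in the 6-library fit and 6 to 8 without 1 library. DDIT3, HSPB1, DUSP1, IER3 and PIM1 kept their calls under every alternative.

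In OE_control against sh_control MAPKAPK2 was at -1.39 under median-of-ratios scaling. Genes of the lists that were lower numbered 2 with no minimum, 3 under median-of-ratios scaling, 3 under quantile normalization, 1 in the 6-library fit and 1 to 7 without 1 library. The cause of these moves was not tested.

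The labels do not say that a replicate number marks a shared batch, and pairing also asked for a correlation over 0.1 in every same-numbered pair. Deviations of same-numbered libraries correlated at 0.09, 0.25 and 0.12 between OE_IFI6 and OE_control, 0.20, 0.01 and 0.12 between OE_control and sh_control, and -0.04, -0.01 and -0.03 in the hairpin groups. In the first 2 of these, each library of the group named first correlated best with its own number in the other group, a hint from the data and not from the design, so no block was used in the values reported.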
